A study of Mus musculus with 12 samples.

Results

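The widest stretches of unmethylated DNA in neonatal and adult mouse β cells were examined as 514 valleys, defined as merged hypomethylated regions (HMRs) of at least 5000 bp on the autosomes. An HMR is a run of neighbouring CpG dinucleotides with low methylation, called by the authors in 4 pools of reads, 1 for each β-cell subtype at each age. HMRs of the 4 pools that overlapped by at least 1 bp were merged into 84472 regions, of which the valleys were 0.608% by number and 6.98% by bases, covering 4.90 of 70.1 Mb. Valleys were thus chosen by their low methylation and their width in these same pools, so their low levels and long extents describe the choice and are not results. At the threshold, the 3 narrowest valleys were 5000, 5003 and 5007 bp long (Fzd8, a region near Nkx3-2, and Ptp4a1), and the 3 widest regions left out were 4998, 4989 and 4986 bp long (Zfp423, Zmiz1 and Mlec). The levels of these 6 regions were 2.09, 13.5, 6.62, 2.16, 1.19 and 5.61% at postnatal day 2 (P2), and 6.25, 11.6, 6.16, 3.18, 1.67 and 3.58% at postnatal day 60 (P60).

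Methylation was read by tagmentation-based whole-genome bisulfite sequencing in 12 libraries of cells from MNYI mice, whose labels give the alleles Myt1cCre, Ngn3nCre, Rosa26eYFP and InsApple in every group. The complementary Cre fragments leave eYFP in the descendants of progenitors that expressed both Myt1 and Ngn3, and InsApple marks β cells. The groups were P2 eYFP- (n = 2 libraries), P2 eYFP+ (n = 2), P60 eYFP- (n = 4) and P60 eYFP+ (n = 4), each library combining cells sorted from several groups of mice. Read counts at single CpGs were deposited as 1 pool per group, without replicates, and single libraries as HMR positions alone. The first pool of each age was taken as eYFP- and the second as eYFP+, an assumption that rests on how many regions the deposited comparison lists hold in each direction. Per the labels, the reporter is named eGFP and the cell type all islet cells, whereas the study describes eYFP and sorted β cells.

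Most CpGs of a mammalian genome are methylated, and short CpG-rich promoters are the usual exceptions. Valleys extend beyond single promoters and are known for covering the genes of developmental regulators, where Polycomb complexes often keep the genes silent, and for covering a few very active genes of a cell type. Enzymes of the DNMT3 family add methyl groups to unmethylated DNA, and TET enzymes help to remove them.

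The sequences below are windows of 150 bp from valleys that changed most with age, on the forward strand of mm39, with every CpG in capitals. In each valley the window was the one with the largest change between ages that held at least 4 CpGs with 10 or more reads in every pool and no untranslated region, so its values describe the choice. The first 4 come from valleys that fell with age. Iapp encodes islet amyloid polypeptide, which is secreted with insulin; Chga encodes chromogranin A, a protein of secretory granules; Ero1b is an oxidase that helps proinsulin fold; and Tmem215 encodes a membrane protein.
Iapp intron, chr6:142248776-142248925: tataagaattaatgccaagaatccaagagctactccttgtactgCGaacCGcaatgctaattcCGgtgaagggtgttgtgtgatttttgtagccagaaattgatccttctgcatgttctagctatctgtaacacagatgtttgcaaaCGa
Chga intron, chr12:102525071-102525220: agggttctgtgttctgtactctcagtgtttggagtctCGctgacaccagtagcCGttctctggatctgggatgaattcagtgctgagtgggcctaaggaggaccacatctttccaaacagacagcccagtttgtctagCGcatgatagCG
Ero1b intron, chr13:12591304-12591453: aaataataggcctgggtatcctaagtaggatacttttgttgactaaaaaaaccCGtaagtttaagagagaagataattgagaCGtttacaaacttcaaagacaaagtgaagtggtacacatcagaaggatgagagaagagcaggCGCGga
Tmem215 exon, chr4:40474345-40474494: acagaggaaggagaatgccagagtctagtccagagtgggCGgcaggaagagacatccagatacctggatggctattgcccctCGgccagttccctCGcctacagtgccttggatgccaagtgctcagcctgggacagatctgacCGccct

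The Ero1b window lay 10663 bp downstream of the gene start, and its 4 CpGs were methylated at 75% in the P2 eYFP- pool and 76.8% in the P2 eYFP+ pool (95% Wilson intervals 67.1 to 81.5% and 69.1 to 83.1%). At P60 the values were 18.8 and 15.4% (14.3 to 24.3% and 11.2 to 20.9%). The Iapp window, 4702 bp downstream, went from 59.5 and 54.8% to 13.8 and 16.0%, and the Chga window, 4662 bp downstream, from 53.8 and 62.9% to 8.40 and 13.7%. In the Chga window each of the 4 CpGs was lower at P60, from 62.9, 38.6, 75 and 63.0% to 11.3, 6.92, 13.7 and 12.6% in the order of the sequence. These intervals cover counting error alone.

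The next 3 windows come from valleys that rose with age. Nkx6-1 and Foxa2 encode transcription factors of the pancreas, and Meis1 encodes a homeodomain cofactor of Hox proteins.
Nkx6-1 upstream flank, chr5:101815719-101815868: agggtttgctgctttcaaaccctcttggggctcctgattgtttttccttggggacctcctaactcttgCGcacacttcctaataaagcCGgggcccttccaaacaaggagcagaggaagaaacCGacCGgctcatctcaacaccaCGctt
Foxa2 downstream flank, chr2:147880363-147880512: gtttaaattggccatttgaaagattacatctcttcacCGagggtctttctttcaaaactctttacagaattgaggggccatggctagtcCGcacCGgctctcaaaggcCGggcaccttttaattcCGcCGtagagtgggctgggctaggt
Meis1 intron, chr11:18964815-18964964: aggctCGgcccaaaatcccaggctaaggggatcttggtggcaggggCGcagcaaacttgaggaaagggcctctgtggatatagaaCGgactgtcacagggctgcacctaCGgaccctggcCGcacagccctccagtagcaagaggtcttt

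The Nkx6-1 window, 2717 bp upstream of the gene start, was methylated at 21.1 and 24.1% at P2 and at 78.4 and 81.7% at P60 in eYFP- and eYFP+ pools. The Foxa2 window, 8567 bp downstream of the start and outside the gene body, went from 24.5 and 20.3% to 81.6 and 78.5%. The Meis1 window started nearly unmethylated, at 3.76 and 5.16%, and reached 65.3 and 43.9%.

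To contrast the flanks with the gene starts, the 150 bp just upstream of 2 of these genes are shown.
Nkx6-1 upstream of start, chr5:101813078-101813227: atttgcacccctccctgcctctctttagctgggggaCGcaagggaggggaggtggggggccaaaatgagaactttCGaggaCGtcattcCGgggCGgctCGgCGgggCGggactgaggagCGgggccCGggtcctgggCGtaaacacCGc
Chga upstream of start, chr12:102520334-102520483: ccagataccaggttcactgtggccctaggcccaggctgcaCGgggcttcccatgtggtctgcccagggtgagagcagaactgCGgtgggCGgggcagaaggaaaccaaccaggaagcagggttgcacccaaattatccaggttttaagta
The 12 CpGs beside the Nkx6-1 start lay between 0 and 1.23% in the 4 pools (0 of 361 reads in P2 eYFP+, which allows up to 1.05% by the Wilson interval), while the 3 CpGs beside the Chga start went from 37.8 and 38.8% to 16.8 and 18.7%.

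Several facts of the libraries precede the results. On the X chromosome, 254 HMRs were found in all P60 libraries labelled male and in none labelled female. Of these, the P2 eYFP- library labelled female held 92.5% and the P2 eYFP- library labelled male 13.4%, so both went against their sex labels, and the 2 P2 eYFP+ libraries held 13% (labelled female) and 84.3% (labelled male). All P2 libraries came in 1 submission and the P60 libraries in 2 others, so age and submission cannot be told apart. The pools held 25.2 and 25.3 reads per autosomal CpG at P2 and 45.7 and 45.4 at P60, and within the valleys 23.9, 23.4, 57.8 and 55.7. Single libraries held 55619 to 59870 autosomal HMRs at P2 and 37067 to 48399 at P60. Within 500 bp of the annotated gene start, the β-cell gene Ins1 was methylated at 28.3 and 35.1% at P2 and 7.87 and 5.74% at P60, against 54.6 to 62.3% at Gcg (α cells), 56.3 to 68.2% at Sst (δ cells), 72.2 to 85.7% at Cpa1 (acinar cells) and 72.2 to 82.0% at Ptprc (immune cells). Ins2 and G6pc2, also β-cell genes, were at 69.0 to 78.6% and 79.7 to 85.0% at their annotated starts. Other genes of non-β cells were nearly unmethylated there. Irx2 (α cells) was at 0.690 to 1.46%, Hhex (δ cells) at 0.773 to 1.94% and Ptf1a (acinar cells) at 0.797 to 1.01%. Methylation at these starts alone thus did not set β cells apart from other pancreatic cells.

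The valleys had a median width of 6813 bp, with 147 of at least 10000 bp and 34 of at least 20000 bp, up to 54866 bp. The start of at least 1 protein-coding gene lay in 382 of them, 36 held several, and 132 held none, at a median distance of 9361 bp from the nearest one. Each gene had 1 start, the outer end of its annotated extent, so alternative starts inside genes were not counted. Of these 132 valleys, 69 held the start of a long non-coding RNA. Compared with merged HMRs of 2000 to under 5000 bp, valleys were poorer in CpGs, with a median of 34.8 against 45.8 CpGs per kb and a ratio of observed to expected CpGs of 0.53 against 0.62. The median G+C content was 51.8 against 54.8%. Among all protein-coding genes of the autosomes, 440 of 20604 (2.14%) started inside a valley. The share was 89.7% for Hox genes (35 of 39), 78.4% for neural developmental factors (40 of 51), 72.5% for mesodermal and cardiac factors (29 of 40), 48.8% for islet transcription factors (21 of 43) and 25% for genes of β-cell function (7 of 28). It was 11.3% for signalling ligands (7 of 62) and 10.5% for genes of DNA methylation and Polycomb complexes (2 of 19).

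The first comparison asked how the valleys changed between neonatal and adult β cells. The level is the share of reads that were methylated, summed over the CpGs of a valley, and it was tested as log2 odds over the 4 pools with terms for age and subtype. The error of this fit comes from the counting error and the trend across regions, with 1 residual degree of freedom per region, and holds no spread between mice. Of 512 valleys tested, 328 (64.1%) were higher at P60 and 50 (9.77%) lower (limma, adjusted p under 0.05), beside 43.3% higher and 9.58% lower over all 83340 regions tested. The median valley level was 4.44 and 4.57% in the P2 eYFP- and eYFP+ pools and 6.04 and 6.17% in the P60 pools, and the median difference was 1.43 percentage points (quartiles 0.29 and 2.46), against 2.65 over all merged HMRs. Both subtypes were higher at P60 in 393 valleys, both lower in 82, and 39 went opposite ways. The share called higher was 87.1% in valleys of at least 10000 bp (128 of 147) and 54.8% in those of 5000 to under 10000 bp (200 of 365), whose median differences were 1.88 and 1.07 points. The wider class also held more reads, with a median of 11197 against 5528 in the pool with the fewest. The typical region itself moved upwards by 0.47 on the log2 odds scale from P2 to P60, and the typical valley by 0.42. Measured against that shift, 103 valleys (20.1%) lay above it and 147 (28.7%) below it, against 26.9 and 23.1% of all regions. The limits of the valleys were drawn from the same pooled reads as the levels. An HMR of at least 5000 bp was present in each pool in 276 valleys, of which 198 were higher and 14 lower, in P2 pools alone in 149 (105 higher, 2 lower) and in P60 pools alone in 24 (1 higher, 22 lower). A valley that was wide at 1 age alone was chosen through its low methylation at that age, so its change in level was set in part by the choice and is given as a description, with no p. A valley wide at both ages can also take part of its extent from 1 age. The widest pooled HMR went from 7476 bp at P2 to 12317 bp at P60 in the Ero1b valley. It went from 9904 to 7404 bp at Foxa2 and from 13342 to 9862 bp at Nkx6-1. The level changes of these valleys are likewise descriptions, with no p.

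**Figure D1:**
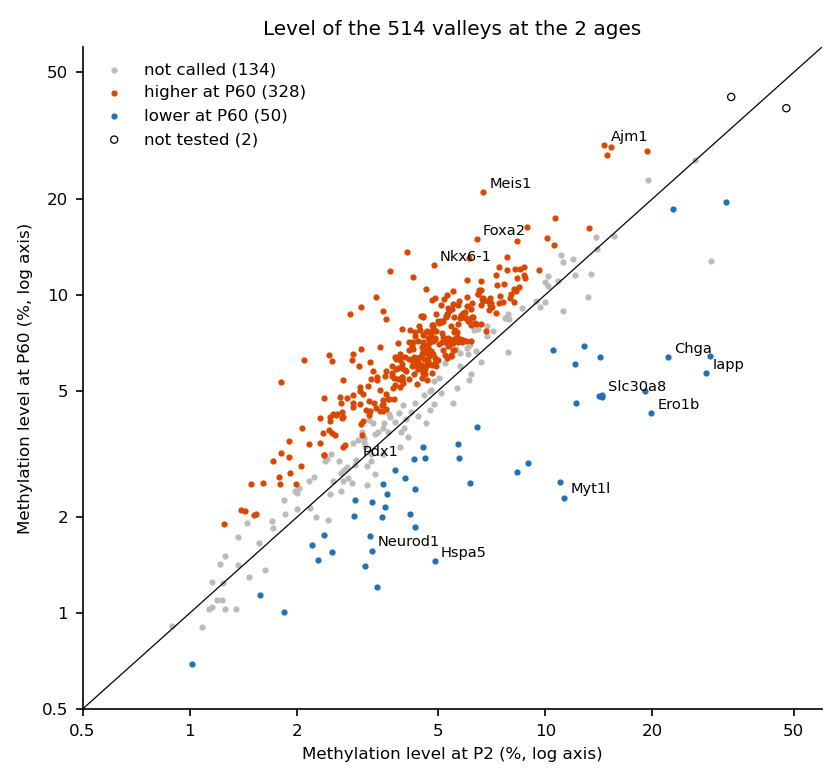
Methylation level of each valley at P2 (horizontal) and P60 (vertical), in percent of reads on log axes, with the reads of both subtypes summed; each point is 1 valley and the line marks equal levels. Most points lie just above the line (328 called higher), while Iapp, Chga, Ero1b and Slc30a8 lie far below it among the 50 called lower.

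Genes of β-cell function formed the group with the largest fall. All 7 valleys of this list fell between P2 and P60 (limma), beside 9.77% of all valleys, with a median difference of -9.56 points. Each also lay below the median shift of all regions, as did 28.7% of all valleys. Ero1b held an HMR of at least 5000 bp in every pool, and Slc30a8, Slc2a2 and Pcsk1 in 1 P2 pool and both P60 pools. Iapp and Chga held such an HMR in P60 pools alone and Pcsk2 in a P2 pool alone. The Iapp valley (chr6:142243681-142249719) was methylated at 26.0 and 30.2% in the P2 eYFP- and eYFP+ pools and at 5.19 and 6.12% at P60. Both P60 pools lay far below both P2 pools (change in log2 odds -2.70 ± 0.18 SE). The Ero1b valley (chr13:12580364-12592680) went from 18.3 and 21.3% to 3.88 and 4.61% (-2.48 ± 0.11). The Chga valley (chr12:102520171-102529093) went from 20.9 and 23.1% to 6.47 and 6.29% (-2.05 ± 0.11).

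The other members of the list fell by smaller amounts. Slc30a8, which encodes the zinc transporter of insulin granules, was at 12 and 16.8% at P2 and at 4.45 and 5.24% at P60. Pcsk1, a convertase that cuts proinsulin, was at 13.2 and 12.5% and then 6.90 and 6.92%, and Slc2a2, the glucose transporter GLUT2, was at 8.96 and 12.2% and then 6.20 and 7.23%. Pcsk2, the second convertase of proinsulin, started low and fell least, from 3.69 and 3.86% to 2.99 and 2.64% (-0.44 ± 0.16 in log2 odds). In all 7 valleys both subtypes were lower at P60, which held for 82 of all 514 valleys. Both subtypes were higher at P60 in 393 of the 514. Within the Iapp, Chga and Ero1b valleys, levels also fell by more points outside the parts that were hypomethylated in every library, a split that puts places of change outside those parts by construction. The parts inside HMRs of all 12 libraries went from 11.8 to 2.06% in Iapp, from 5.22 to 1.55% in Chga and from 2.87 to 1.06% in Ero1b. The remaining parts went from 50.6 to 11.2%, from 40.1 to 11.5% and from 49.9 to 10.7%.

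The falls outside that list included both transcription factor genes and genes of protein folding. Myt1l, a zinc-finger factor of the Myt family, went from 8.79 and 13.7% to 2.50 and 2.10% (-2.39 ± 0.19 in log2 odds). Neurod1, a basic helix-loop-helix factor that activates insulin transcription, went from 2.99 and 3.50% to 1.47 and 1.69%. Both valleys held an HMR of at least 5000 bp in 1 P2 pool and both P60 pools, so these changes are descriptions, with no p. The Neurod1 valley also holds the start of Cerkl. A valley on chromosome 19 with the starts of the long non-coding RNAs Neat1 and Frmd8os and no coding start, wide in a P60 pool alone, fell as far as Iapp, from 27.0 and 31.4% to 6.22 and 6.64%. Tmem215, also wide in P60 pools alone, fell from 11.9 and 16.3% to 3.98 and 5.74%. Among those chosen after their values were seen, the chaperone genes Hspa5 (4.89 to 1.46%, subtypes summed) and Hsp90b1 (6.42 to 3.84%, shared with Ttc41), the mitochondrial enzyme Hadh (11 to 2.57%) and Gjd2, a gap junction protein of β cells (12.2 to 4.58%), were called lower. Of these 4, Hspa5 was wide in every pool and the others in P60 pools alone. Of the 50 valleys that fell, 41 held a coding start, beside 382 of all 514 valleys and 253 of the 328 that rose. The median width of those that fell was 6010 bp, and 2 reached 10000 bp. Of those that rose the median was 7784 bp, and 128 reached 10000 bp.

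Most valleys of islet transcription factors rose, as did most valleys. Of their 21 valleys, 15 rose, 2 fell (Myt1l and Neurod1) and 4 were not called, beside 64.1% higher and 9.77% lower over all valleys. Above the median shift of all regions lay 8 (38.1%), against 20.1% of all valleys and 26.9% of all regions, among them Foxa2, Gata6, Insm1, Nkx2-2, Nkx6-1 and Sox4. In percentage points, though not in log2 odds, the largest rise in the list was at Foxa2 (chr2:147879143-147889046), which encodes a forkhead factor of endoderm. It went from 6.74 and 6.10% to 15 and 14.8% (1.35 ± 0.09 in log2 odds). Nkx6-1 (chr5:101802884-101816225), a homeodomain factor that maintains β-cell identity, rose from 4.73 and 4.97% to 12.2 and 12.5% (1.47 ± 0.09). Gata6, wide in P2 pools alone, rose from 4.08 and 3.00% to 8.83 and 7.92%, Insm1 from 2.32 and 2.73% to 5.95 and 6.45%, and Nkx2-2 from 2.70 and 3.04% to 5.88 and 6.65%.

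The remaining islet factors spread around smaller differences. Pdx1, needed for pancreas formation and insulin transcription, was at 2.78 and 3.12% at P2 and 2.98 and 3.08% at P60. It was not called (0.04 ± 0.13 in log2 odds), and its pools overlapped between ages. Mnx1 (3.96 and 5.33%, then 3.82 and 4.09%), Hes1 (2.09 and 1.6%, then 2.27 and 2.29%) and Tshz1 (3.13 and 3.05%, then 3.35 and 3.76%) were not called either. Pax6, Isl1, Irx1 and Lmx1a rose by 0.95, 2.00, 1.70 and 1.04 points, with changes in log2 odds under the median shift of all regions. Foxa1, Sox4, Sox9 and Irx2 rose by 2.38, 2.12, 2.45 and 2.15 points.

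Inside the Nkx6-1, Foxa2 and Meis1 valleys, the gained methylation lay beside a core that changed little. The part of the Nkx6-1 valley inside HMRs of all 12 libraries (9841 bp) was at 1.18% at P2 and 1.4% at P60, while the remaining 3501 bp went from 21.1 to 64.4%. For Foxa2 the values were 1.23 and 1.34% in the shared part and 21.6 and 56.5% in the rest. Meis1 was at 0.834 and 0.991% in the shared part and went from 13.2 to 42.5% in the rest. The core was not level in every valley with a large rise. Near Cdkn2a the shared part went from 6.91 to 12.6% and near Shb from 4.43 to 7.59%, and over the valleys that rose its median went from 3.22 to 4.82%. Shared parts were chosen as hypomethylated in every library, so that places that changed fall into the rest by construction, and these values are a description.

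**Figure D2:**
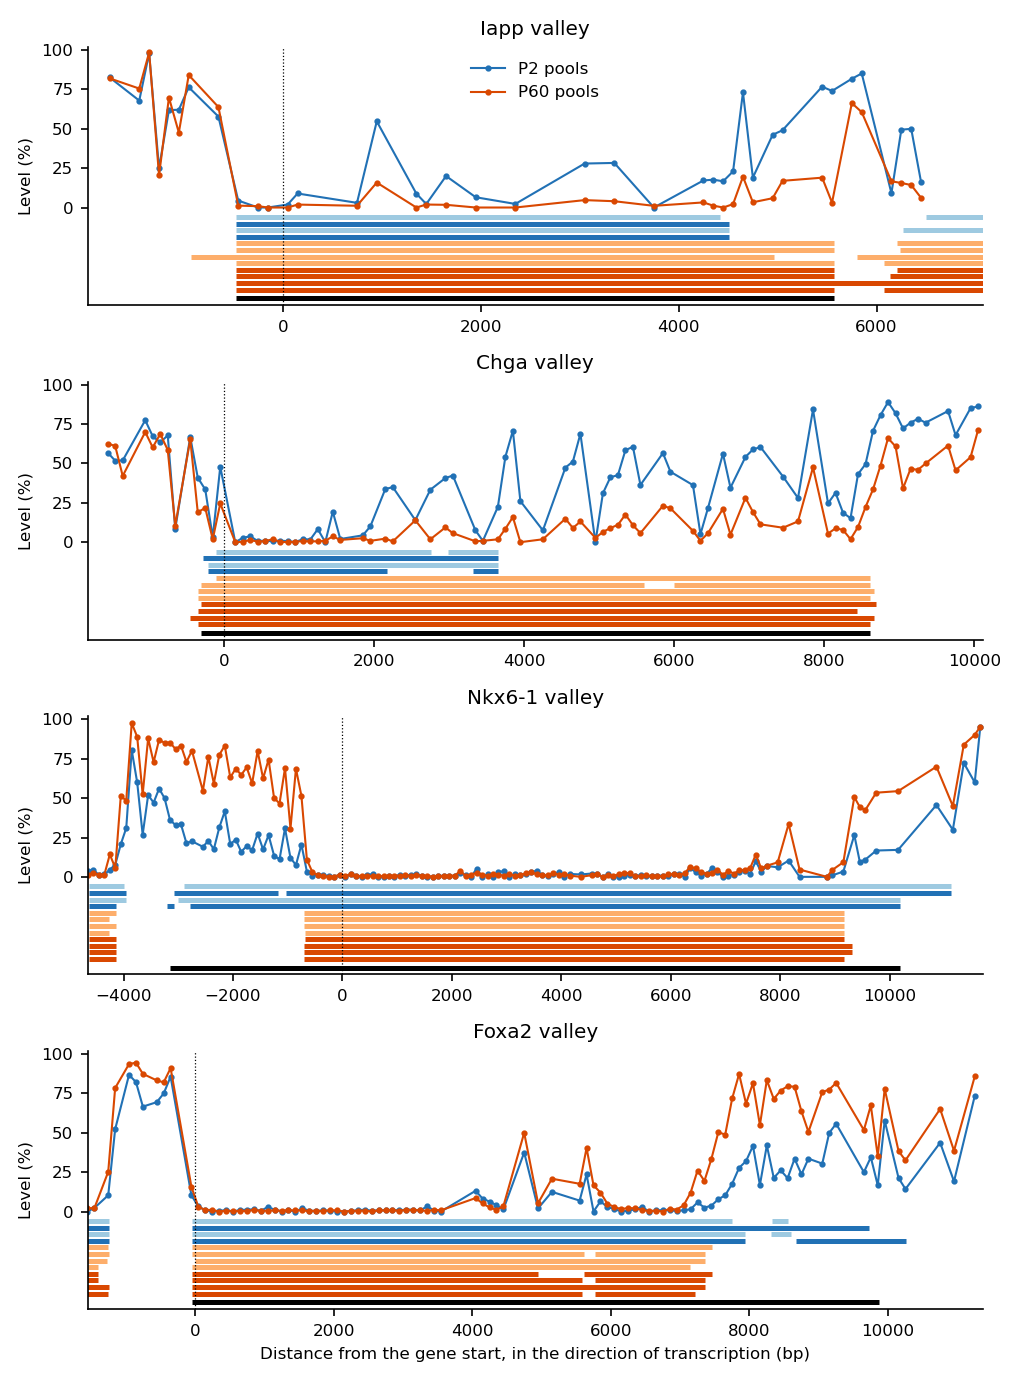
Methylation level in bins of 100 bp at P2 (blue) and P60 (orange), subtypes summed, across the Iapp, Chga, Nkx6-1 and Foxa2 valleys, by distance from the gene start in bp; bars below give the HMRs of the 12 libraries (light blue P2 eYFP-, dark blue P2 eYFP+, light orange P60 eYFP-, dark orange P60 eYFP+) and, in black, the merged region. In Chga the HMRs of the P2 libraries stop well inside the valley and those of the P60 libraries fill it, whereas in Nkx6-1 the P60 HMRs withdraw from the upstream flank.

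Developmental regulators of other tissues rose by small amounts. The 35 Hox genes in valleys, which set position along the body axis, lay in 13 valleys with a median width of 30468 bp. Of these, 11 rose and none fell, with a median difference of 1.73 points. Over all valleys 64.1% were called higher, and 87.1% of those of at least 10000 bp. The widest valley of all covered Hoxb5 to Hoxb9 (chr11:96141394-96196259) and rose from 4.56 and 4.71% to 6.42 and 6.67% (0.53 ± 0.07 in log2 odds). Its widest pooled HMR was 54861 bp at P2 and 48420 bp at P60, so this change is a description, with no p. The Hoxd9 to Evx2 valley (chr2:74477894-74532069) rose from 4.32 and 4.47% to 6.06 and 6.27%, the Hoxa3 to Hoxa7 valley from 7.38 and 7.44% to 9.35 and 9.52%, and the Hoxc valley with Hoxc10 to Hoxc12 from 4.69 and 5.11% to 6.20 and 6.42%. Hoxa2 was not called (9.96 and 9.95%, then 10.7 and 11.2%). Against the median shift of all regions, 4 of the 13 (30.8%) lay below it and none above, against 28.7 and 20.1% of all valleys.

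Neural developmental factors rose in 36 of 37 valleys, with a median difference of 2.19 points, and mesodermal and cardiac factors in 28 of 29, with 1.88 points. The median widths of these lists were 15299 and 11753 bp. Of valleys of at least 10000 bp 87.1% were called higher, against 64.1% of all valleys. In both lists no valley fell, beside 9.77% of all valleys and 1.36% of those of at least 10000 bp. Above the median shift of all regions lay 10 neural valleys (27.0%), among them Otx1, Emx1 and En1, and 7 mesodermal ones (24.1%), among them Msx1, Osr2 and Tal1, named here after their values were seen. These shares lay near the 26.9% of all regions and the 20.1% of all valleys. Hand2, a heart and limb factor in one of the 6 widest valleys (39497 bp), rose from 4.46 and 4.29% to 5.10 and 5.39%, by less than the median shift. Of the 6 valleys with signalling ligands 5 rose (Gdf6, Wnt11, Fgf9, Shh, and Wnt1 with Wnt10b), beside 64.1% of all valleys. Cbx8, a chromobox protein of Polycomb complexes, rose from 5.34 and 4.17% to 6.40 and 6.87%. Jarid2, which recruits Polycomb complex PRC2, rose from 1.76 and 1.80% to 2.80 and 2.52%. With the outer 500 bp at each end left out, its change went the other way (log2 odds -0.82).

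**Figure D3:**
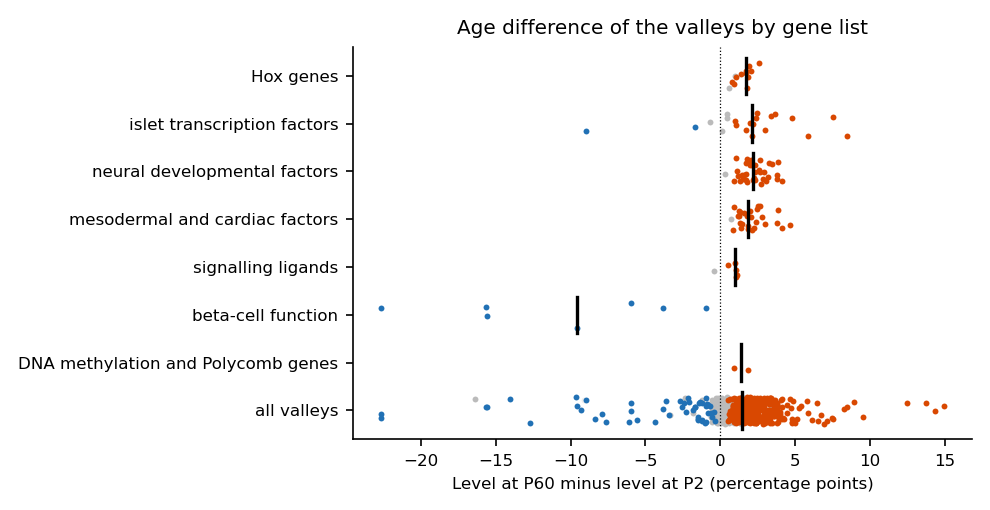
Level at P60 minus level at P2, in percentage points with subtypes summed, for the valleys of each gene list and for all valleys; points are valleys (orange higher, blue lower, grey not called or not tested) and black bars are medians. The 7 valleys of β-cell function lie below 0 with a median of -9.56, and the developmental lists lie above 0.

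The largest rises among valleys with at least 200 reads per pool were at Ajm1, Meis1 and 2 regions without a coding start. All 4 were wide in P2 pools alone, so their rises are descriptions. Ajm1, which encodes a protein of apical junctions, rose from 15 and 14.4% to 29.96 and 29.3% (1.29 ± 0.08 SE in log2 odds), and Meis1 from 7.69 and 5.64% to 23.2 and 18.9%. A valley near Shb (chr4:45489392-45494408) rose from 15 and 15.5% to 29.6 and 28.4%, and one near Cdkn2a (chr4:89204976-89211042) from 15.2 and 14.7% to 29.4 and 25.5%. Cdkn2a encodes cell cycle inhibitors that accumulate in β cells with age; the valley held no coding start. Among those chosen after their values were seen, the immediate early gene Ier2 (4.10 to 13.6%, subtypes summed), Gadd45b (6.10 to 13.1%) and Dusp4 (3.65 to 11.9%) were called higher.

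Position and CpG density inside the valleys went with the size of the change. For the 496 valleys with a mean of 10 to 100 reads per CpG in each pool, CpGs at least 1000 bp inside were at 3.86% at P2 and 5.2% at P60, and those nearer to an edge at 8.03 and 10.9%. CpGs with over 30 CpGs within 250 bp went from 1.44 to 2.23%, those with 11 to 20 from 6.0 to 8.97%, and those with 1 to 5 from 16.6 to 18.0%. Within 500 bp of a coding start the levels were 1.88 and 2.64%, in introns 5.45 and 7.32%, and between genes 6.14 and 8.52%. In the valleys that rose, the median level in the outermost 250 bp went from 17.9 to 25.1%, and at 2000 bp inside from 3.42 to 5.62%. In the valleys that fell, CpGs with 1 to 5 neighbours went from 21.3 to 10.02% and those with over 30 from 0.841 to 0.596%. The parts outside the shared HMRs had a median difference of 8.24 points in valleys that rose and -15.4 points in those that fell, against 1.59 and -0.94 points in the shared parts, as the way of splitting them implies.

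**Figure D4:**
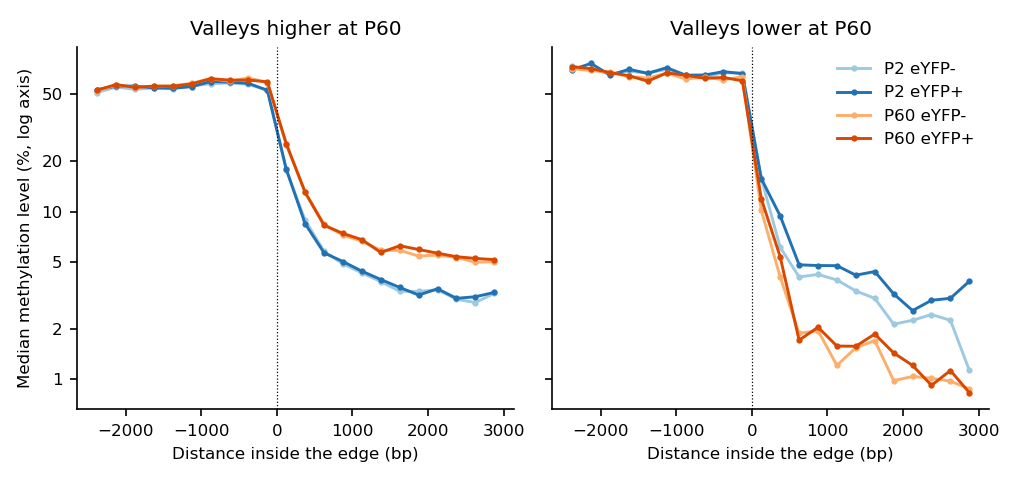
Median methylation level (percent, log axis) in bins of 250 bp by distance inside the nearer edge of the valley in bp (negative values lie outside), for valleys higher at P60 (left) and lower at P60 (right), in each of the 4 pools. On the left the P60 pools lie above the P2 pools from the edge to the interior. On the right they lie below, and the gap on this log axis is wider in the interior. In percentage points the median fall on the right was larger at the edge (-4.32 in the outermost 250 bp, -1.13 at 2000 bp inside).

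The second comparison used the HMRs of single libraries, the only deposited values with replicates, and asked how much of each valley a library covered. The median covered share was 96.9 and 98.3% in the P2 eYFP- libraries and 99.4 and 97.7% in the P2 eYFP+ libraries. In the P60 eYFP- libraries it was 91.5, 91.4, 92.5 and 90.6%, and in the P60 eYFP+ libraries 92.4, 90.2, 93.3 and 91.0%. The 4 P2 libraries lay above all 8 P60 libraries, with means of 98.1% ± 1.04 (SD, n = 4) and 91.6% ± 1.04 (SD, n = 8), a difference of -6.43 points that was larger than the spread within either age. Replicates 1 and 2 of P60 alone gave -6.65 points and replicates 3 and 4 alone -6.22 points, and without both P2 eYFP- libraries, whose sex labels were contradicted, the difference was -6.89 points. No p is given for this median, since the valleys were chosen by the HMRs of the same reads. For HMRs of 2000 to under 5000 bp the same share went from 97.1% ± 1.47 (SD, n = 4) to 88.3% ± 0.732 (SD, n = 8).

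Valleys also broke into more pieces at P60. A library held 1.15 to 1.28 HMRs per valley at P2 and 1.35 to 1.68 at P60, a mean difference of 0.306, and 404 to 447 valleys held an HMR of at least 5000 bp at P2 against 316 to 355 at P60. Among 379 valleys that were a single HMR in both P2 pools, 112 (29.6%) were split in both P60 pools. Starting from single HMRs at P2 allows a change towards splitting alone. In the reverse count, 13 of 245 valleys that were a single HMR in both P60 pools were joined there from several at P2. At the outer edges, both P60 pools ended inside both P2 pools at 383 of 1018 edges (37.6%), by a median of 234 bp, and the reverse held at 41 edges (4.03%). The shares were 36.1 and 4.56% for HMRs of 2000 to under 5000 bp. More reads per CpG at P60 moved with these changes, and the part of depth was not tested. At P60, libraries labelled male covered less than those labelled female (90.8% ± 0.515 and 92.4% ± 0.718, SD, n = 4 each), and their ranges did not overlap, a comparison chosen after seeing the data.

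**Figure D5:**
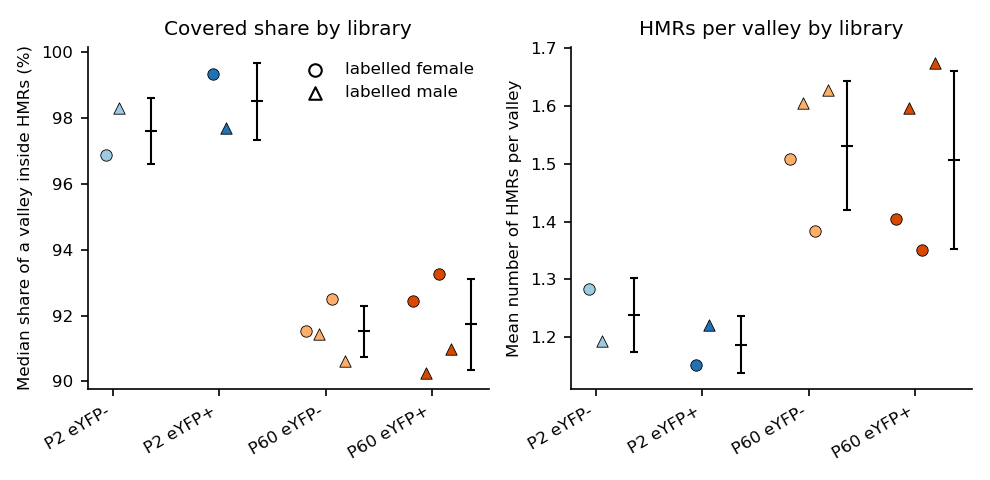
Left, median share of a valley inside the HMRs of a library in percent; right, mean number of HMRs per valley; each point is 1 library (circles labelled female, triangles labelled male), and the bars beside the points give the group mean and SD. The P2 libraries lie at 96.9 to 99.4% and the P60 libraries at 90.2 to 93.3%.

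Fitted valley by valley over the 12 libraries, 214 of 509 valleys (42.0%) were narrower at P60 and 25 (4.91%) wider (limma, adjusted p under 0.05), beside 40.2 and 2.38% of all 19561 merged HMRs of at least 1000 bp. The share of narrower valleys was thus near that of HMRs in general. Of the 214 narrower valleys, 181 also rose in level, and 24 of the 25 wider ones fell; both measures read the same libraries. A merged region takes its extent from the age at which it was wider, so the values of single valleys below are descriptions, with no p. The largest losses were near Med13, where the P2 libraries covered 82.2, 100, 40.4 and 95.9% (eYFP- and eYFP+ of replicate 1, then of replicate 2) and 7 of 8 P60 libraries covered 0%, the other 36.9%. Near Shb the P2 libraries covered 84.5 to 100% and the P60 libraries 32.5 to 45.9%. Near Gnas the ranges were 96.3 to 100% and 40.2 to 56.9%, and near Cdkn2a 75.1 to 100% and 29.4 to 54.3%. These 4 valleys were picked for the largest loss, so that none overlapped between ages follows from the choice. None held the annotated start of a coding gene, as was so for 132 of all 514 valleys. Alternative starts inside genes were not counted.

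The 2 largest gains were at Chga and Ero1b. Chga was covered at 39.7 and 43.3% in the P2 eYFP- libraries, at 44.0 and 30.4% in the P2 eYFP+ libraries, and at 95.5 to 100% in the 8 P60 libraries (a change of 59.6 ± 2.39 SE points). Ero1b was covered at 42.9 to 60.7% at P2 and at 93.1 to 100% at P60 (45.5 ± 3.08). Iapp was covered at 80.9 to 82.5% at P2 and at 89.9 to 100% at P60, with 7 of 8 P60 libraries at 100%. Of the 21 valleys of islet transcription factors, 15 were narrower and 1 (Myt1l) wider, beside 42.0 and 4.91% of all valleys. Nkx6-1 stood at 97.9 to 98.9% in P2 libraries and at 73.8 to 75.1% in P60 libraries (-24.2 ± 0.887). Pdx1, whose level was not called, was narrower too, from 95 to 100% at P2 to 87.1 to 93.8% at P60. Pcsk2 was the only valley that fell in level and was narrower.

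The third comparison asked whether the β-cell subtypes differed. The difference between eYFP+ and eYFP- pools, ages summed, had a median size of 0.22 points over the valleys, and 3 of 512 valleys (0.586%) were called (limma), beside 0.116% of all regions. Meis1 was lower in eYFP+ cells, at 5.64 against 7.69% at P2 and 18.9 against 23.2% at P60 (limma adjusted p = 0.0265). Tmem215 was higher in eYFP+ cells, at 16.3 against 11.9% at P2 and 5.74 against 3.98% at P60 (limma adjusted p = 0.0324). The third, near Esp38 on chromosome 17, held 1984 to 5052 reads per CpG, far above the rest, and the part of this in its level was not tested. On the arcsine scale none of the 3 was called. Over libraries, the median covered share differed by 0.216 points between P60 eYFP+ and eYFP- (91.7% ± 1.38 and 91.5% ± 0.775, SD, n = 4 each) and by 0.922 points at P2 (98.5% ± 1.17 and 97.6% ± 1.00, SD, n = 2 each), in both cases with overlapping ranges. No valley differed between subtypes in covered share (limma adjusted p; 20 of 509 had an unadjusted p under 0.05).

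At Slc2a2 the change with age differed between subtypes. The P2 eYFP- libraries covered 97.8 and 96.4% of the valley and the P2 eYFP+ libraries 71.6 and 72.7%, while all P60 libraries covered 97.8 to 100%. The interaction of age and subtype was 24.5 points. The valley held an HMR of at least 5000 bp in 1 P2 pool and in both P60 pools. Its extent was thus chosen in part by these values, and the difference is a description, with no p. Slc2a2 was the only 1 of 509 valleys called for this interaction (limma), beside 1.44% of all 19561 regions (282). In the pools, its level was 8.96% in P2 eYFP- and 12.2% in P2 eYFP+ cells. Both P2 eYFP- libraries went against their sex labels, and the part of this in the difference was not tested.

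Genes for microRNAs lay in 31 valleys. Mir7-2, from which the islet microRNA miR-7a is made, lay in a valley that fell from 12.1 to 6.05% (subtypes summed), and Mir375, another islet microRNA gene, in one that was not called (2.91 and 2.92%); both were chosen after their values were seen. The mature miR-7a, as given by RefSeq, is shown with its seed (bases 2 to 8) in capitals.
mmu-miR-7a-5p: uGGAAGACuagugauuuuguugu

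Some valleys carried too few or too many reads for firm values. A mean of under 10 reads per CpG in at least 1 pool was seen in 17 valleys, among them Defa33, Anxa2r2 and 3 clusters of histone genes, which are families of near-identical copies, so their values are uncertain. Of the 17, 2 on chromosome 14 had too few reads to be tested. Leaving out these 17 and the Esp38 valley gave 326 higher and 48 lower valleys. The 95% Wilson interval of a valley's level had a median half-width of 0.46 and 0.47 points in the P2 pools and 0.34 and 0.35 points in the P60 pools.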

How the data were processed

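Tagmentation libraries were trimmed by the authors with Trim Galore 0.6.6 and cutadapt 1.16 and handled with SAMtools 1.5, per the submitters' processing notes, and mapped to mm39 with abismal. The authors called HMRs and counted reads per CpG with MethPipe; versions of these tools are not given in the sources used here. The deposited counts give methylated and unmethylated reads per CpG in each pool of a group, and deposited HMR files give region limits for pools and single libraries. The authors' comparison lists and their score column hold the study's findings and were not used. No sample column was left unused (0).

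Pooled HMRs overlapping by at least 1 bp were merged on autosomes, and regions of at least 5000 bp kept. Genes are GENCODE mm39 and sequences come from the mm39 genome and RefSeq. Levels of regions with at least 3 CpGs and 10 reads in every pool were converted to log2 odds with a pseudocount of 1 and fitted with limma 3.58.1 (R 4.3.3) on age and subtype, with Benjamini-Hochberg adjustment over all regions. The planned variance trend on mean reads gave too many false calls on simulated data, so the trend was set on the counting variance. The covered percent of each library was fitted with limma over merged HMRs of at least 1000 bp. Libraries combine several sorts of pooled mice, so their spread may be partly technical. Library pairs with the same replicate number deviated together at P60 (correlations 0.112 to 0.173) and not at P2 (-0.0186); no 2 libraries were identical. Members and gene lists were chosen with earlier results of these data known. Named valleys were the 6 widest, the 4 called ones with the largest rise and the 4 with the largest fall in level (at least 200 reads per pool), those called between subtypes (at most 3 in each direction), the 4 with the largest loss and the 2 with the largest gain in covered share, members of the lists on Hox, islet, β-cell function and DNA methylation genes, and the 3 regions on either side of the width threshold. Exact permutation tests of library medians over the valleys were planned and run, and their p-values are not printed because the valleys were chosen with results known. A few named items are not reported here. Others are named as chosen after their values were seen. Alternatives were other pseudocounts, scales, filters, widths, centring, Fisher's exact test, the replicate block and leaving out libraries.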

Additional observations from a re-analysis of the deposited data

Results flagged for a closer look

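Among 26 groups of 4 libraries that were looked at, 7 held a library whose gap to its nearest neighbour was above Dixon's critical value for 4 samples, and chance alone flags about 1 group in 20. HMR limits fall on CpGs, so libraries often share the same value and small gaps can be flagged. The libraries were P60 eYFP- replicate 4 near Shb (32.5% covered), P60 eYFP- replicate 3 at Iapp (89.9%), P60 eYFP+ replicate 2 at Meis1 (61.5%) and at Chga (98.0%), P60 eYFP+ replicate 4 at Ero1b (93.1%), P60 eYFP+ replicate 3 near Med13 (36.9%) and P60 eYFP+ replicate 1 at Slc2a2 (100.0%).

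At Slc2a2 the change in covered share with age differed between the subtypes by 24.5 points (interaction term in limma), a description with no p. The means were 97.1% in P2 eYFP-, 72.1% in P2 eYFP+, 98.9% in P60 eYFP- and 98.4% in P60 eYFP+ libraries. On the X chromosome, which the valleys leave out, the P2 eYFP- library labelled female (replicate 1) held 92.5% of the HMRs found in every P60 male and no P60 female library.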

How the results depend on the processing

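The number of valleys was 1510 with a width of at least 3500 bp, 224 at 7500 bp and 276 where each pool needed an HMR of 5000 bp. Valleys higher at P60 numbered 285 to 368 under the other settings against 328, and 103 after centring on the median of all regions; lower valleys numbered 34 to 65 against 50, and 147 after centring. The 3 valleys called between subtypes became 0 on the arcsine scale, 0 with the trend on mean reads (added after seeing the data) and 47 with Fisher's exact test. The median difference of 1.43 points was 1.44 in eYFP- pools, 1.44 in eYFP+ pools, 1.14 without the outer 500 bp, 1.44 with CpGs of 10 reads, 0.87 at 3500 bp, 1.79 at 7500 bp and 1.44 with 10 to 100 reads per CpG (added after seeing the data). The P60 minus P2 covered share lay between -6.82 and -6.004 with 1 library left out. The P60 subtype difference of 0.216 ranged from -0.299 to 0.713 with 1 library left out, below 0 without eYFP+ replicate 1 (-0.0186), eYFP+ replicate 3 (-0.299) or eYFP- replicate 4 (-0.0885). With the replicate block it stayed 0.216 at P60 and 0.922 at P2, and 216 valleys were narrower against 214; leaving out 1 library gave 175 to 218. Of single valleys, centring turned the log2 odds change at Hoxa3 to Hoxa7 (-0.088), Hoxc12 to Hoxc5 (-0.081), Hand2 (-0.20), Hoxb13 (-0.28), Lmx1a (-0.20), Pax6 (-0.065), Pdx1 (-0.43), Irx1 (-0.10), Isl1 (-0.12), Hes1 (-0.15), Tshz1 (-0.27), Hoxa2 (-0.31), Hoxa13 (-0.18) and Hoxc13 (-0.24). Leaving out the outer 500 bp turned it at Pdx1 (-0.12), Hes1 (-0.39), Jarid2 (-0.82) and Zmiz1 (-0.30), and CpGs of 10 reads at Ptp4a1 (0.055). The causes were not tested, except that centring subtracts the shift of all regions by construction. Of the other values of single valleys, 855 kept direction and side of the threshold, 88 lost the call and 4 gained it.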

Other observations

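At P60, libraries labelled male held more HMRs in the genome than those labelled female, from 44822 to 48399 against 37067 to 43554, and more HMRs per valley, with 1.6 to 1.68 against 1.35 to 1.51. The subtypes did not separate in this way, at 1.38 to 1.63 in eYFP- and 1.35 to 1.68 in eYFP+ libraries. This comparison was chosen after seeing the data.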
